A study of Mus musculus with 2 samples.

Results

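The Zfp genes of mouse chromosome 7 were examined for reads of Msl1 and Nsl1, the subunits that mark the MSL and the NSL form of the Mof histone acetyltransferase complexes. The genes were taken by position and name, as all protein-coding genes of chromosome 7 whose symbol is Zfp followed by a number, a rule that uses no measured value. It gave 86 of the 22367 protein-coding genes of the nuclear chromosomes and part of the 344 Zfp genes that the genome holds by the same naming. Chromatin of wild type mESCs of the E14 line, of the 129P2/OlaHsd background and at passage P26, was cross-linked and sequenced after precipitation with an antibody to Msl1 or to Nsl1, 1 library each. Both are purified polyclonal rabbit antibodies, raised against an N-terminal part of Msl1 and a C-terminal part of Nsl1. The cells share all else that the labels give, while the libraries were made with different kits and read to different lengths, so antibody, kit and read length cannot be told apart. With 1 library per antibody there is no replicate spread and no test, and each interval below covers counting error only.

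Most Zfp genes code for proteins with a row of C2H2 zinc fingers, short folds held by a zinc ion that read DNA. Many of them also carry a KRAB box, which recruits the corepressor Trim28 and with it silencing enzymes, and such KRAB zinc finger proteins are known for silencing transposable elements in embryonic stem cells. These genes arose by repeated duplication, so they lie in clusters, and their last exon, which usually codes for all fingers, can resemble that of a neighbour. Mof acetylates histone H4, and both complexes are known at active genes.

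By gaps of under 1 Mb the 86 genes fell into 17 position groups, of which 8 held 6 or more members and together 74 of the 86 genes, and 6 held a single gene. On the plus strand lay 50 genes and on the minus strand 36. The annotated coding bases gave a protein without an internal stop for all 86, and 84 of these held between 1 and 33 C2H2 patterns (a median of 11 over the 86 genes). The last exons coded for 816 of the 969 patterns. A KRAB box was read in 49 proteins, where at least 10 of 14 fixed letters of the box were required. These 49 matched at 12 or more letters and the other 37 at 8 or fewer, so no protein lay near the limit. The genes without a C2H2 pattern were Zfp36, with 2 CCCH patterns, whose protein binds and destabilizes AU-rich mRNAs, and Zfp850, whose annotated model has 1 exon and 140 residues.

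Reads were first counted within 500 bases of each TSS and divided by the local level, the library's own reads per kb at a distance of 5 to 50 kb upstream and downstream. At the members' TSSs Nsl1 was the stronger of both antibodies by this measure. The median ratio was 2.06 for Msl1, with a range from 0.353 to 6.04, and 2.81 for Nsl1, with a range from 0.282 to 12.45. Over all protein-coding genes the medians were 1.82 and 1.70, and over the 1986 other protein-coding genes of chromosome 7 they were 1.47 and 1.54. The 258 Zfp genes of other chromosomes had medians of 2.14 and 2.75, close to those of the members. The Nsl1 ratio exceeded the Msl1 ratio at 62 of the 86 genes (72.1%), and at 52.3% of all protein-coding genes. The windows held between 2 and 89 Msl1 reads (median 21) and between 3 and 158 Nsl1 reads (median 37), so that a single gene's ratio is known only roughly.

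A TSS was called when it held at least 10 reads and at least 2 times the local level. By this rule 45 of the 86 members (52.3%) were called for Msl1, where 43.5% of all protein-coding genes were. For Nsl1 59 members (68.6%) were called, where 40.1% of all genes were. Of the Zfp genes of other chromosomes 54.3% were called for Msl1 and 61.6% for Nsl1. The Msl1 share of the members thus lay near that of all genes, and the Nsl1 share lay above it, as did that of the other Zfp genes. Both antibodies were called at 38 members (44.2%), against 29.1% of all genes. Nsl1 alone was called at 21 members (24.4%, against 11.05% of all genes), Msl1 alone at 7 (8.14%, against 14.4%) and neither at 20 (23.3%, against 45.5%). The Poisson interval of the ratio lay wholly above 1 at 56 members for Msl1 (65.1%, against 52.2% of all genes) and at 67 for Nsl1 (77.9%, against 50.8%). It lay wholly above 2 at 14 members for Msl1 (16.3%, against 23.3%) and at 42 for Nsl1 (48.8%, against 24.9%). Across the members the ratios of both antibodies had a Spearman correlation of 0.593 (n = 86), and across the 22177 protein-coding genes with a local level in both libraries one of 0.625, where the points share the annotation and the chromatin.

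**Figure D1:**
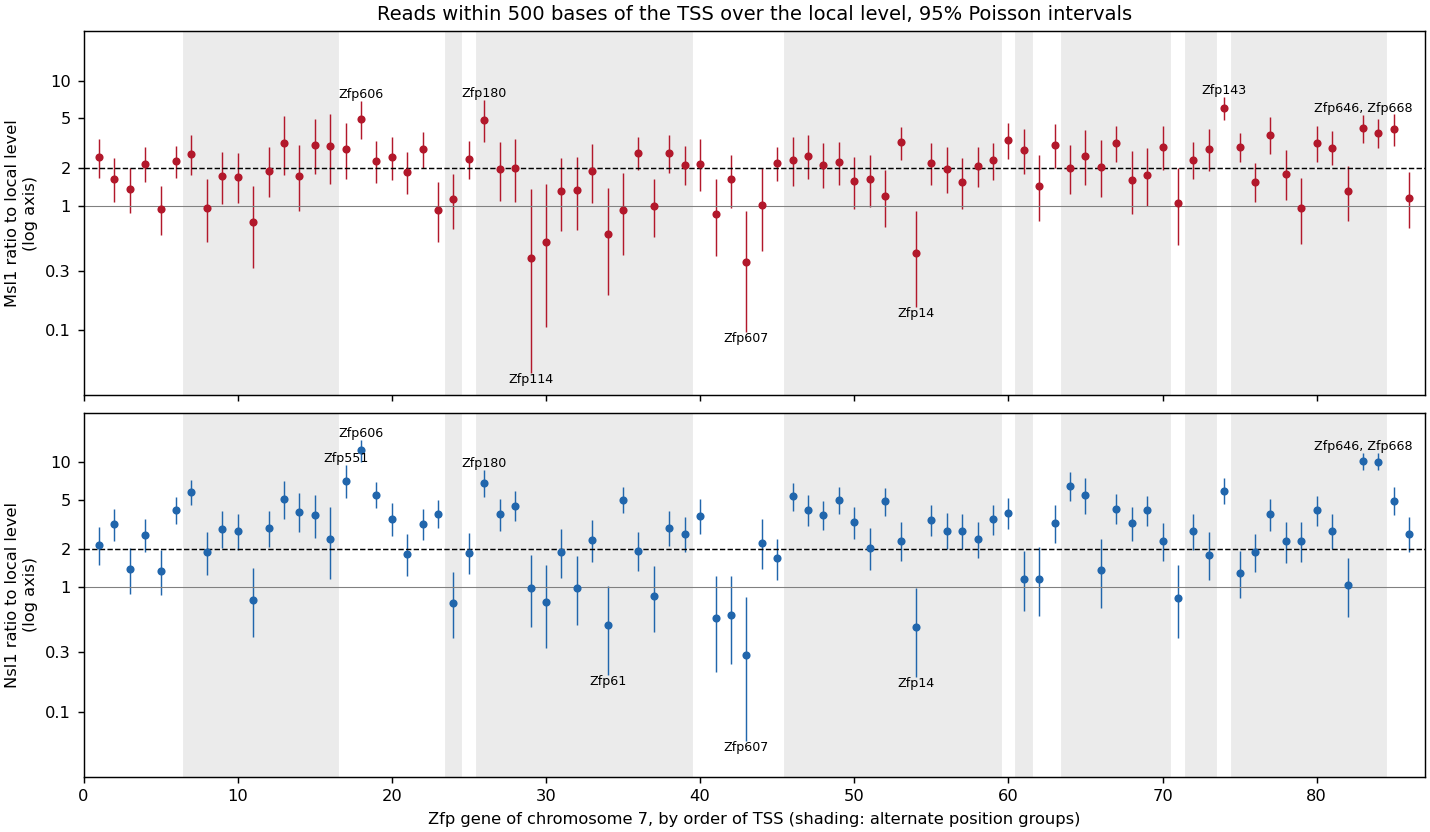
Ratio of the reads within 500 bases of the TSS to the local level (log axis) for the 86 Zfp genes of chromosome 7 in the order of their TSSs, for Msl1 (top) and Nsl1 (bottom), with exact 95% Poisson intervals of the window's reads. Grey and white bands are alternate position groups, the dashed line is at 2 and the solid line at 1. High and low genes stand side by side within the groups, and more Nsl1 than Msl1 points lie above the dashed line (59 called genes against 45).

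The highest Msl1 ratio was that of Zfp143 (ENSMUSG00000061079.6, TSS at 117205216 on the plus strand). Its protein is an activator that binds the promoters of small nuclear RNA genes and of many protein-coding genes. Within 500 bases lay 89 Msl1 reads, 6.04 times the local level (4.85 to 7.43), and 70 Nsl1 reads, 5.87 times (4.58 to 7.42). The gene stood first of 86 for Msl1 and seventh for Nsl1. The TSS of AA474408 lies 377 bases from it, so the reads cannot be given to 1 of the pair.

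The highest Nsl1 ratio was that of Zfp606 (ENSMUSG00000030386.10, TSS at 13063642), a KRAB gene with 13 C2H2 patterns. There lay 98 Nsl1 reads, 12.45 times the local level (10.1 to 15.2), and 33 Msl1 reads, 4.93 times (3.39 to 6.92), and the intervals did not overlap. In the 500 bases upstream of the TSS the Nsl1 ratio was 17.8 (70 reads) and the Msl1 ratio 2.69 (9 reads). In the 500 bases downstream they were 7.12 (28 reads) and 7.18 (24 reads). Nsl1 was thus highest just before the TSS of Zfp606 and Msl1 just after it.

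Zfp646 and Zfp668 followed for Nsl1. Their TSSs lie 32 bases apart on opposite strands of chromosome 7, at 135020310 and 135020342, and share nearly all reads, so they are not independent, although both stay in the counts by gene. With this pair counted once, 44 of 85 were called for Msl1 and 58 for Nsl1. The window of Zfp646 held 158 Nsl1 reads, 10.2 times the local level (8.64 to 11.9), and 61 Msl1 reads, 4.17 times (3.19 to 5.36). That of Zfp668 held 157 Nsl1 reads, 10.1 times, and 56 Msl1 reads, 3.83 times. At Zfp551 (KRAB, 13 patterns) there were 45 Nsl1 reads, 7.05 times the local level (5.14 to 9.43), against 16 Msl1 reads, 2.85 times (1.63 to 4.635). At Zfp180 (12 patterns, no KRAB box read) 69 Nsl1 reads and 29 Msl1 reads gave ratios of 6.81 (5.30 to 8.62) and 4.86 (3.25 to 6.97). At Zfp788 (KRAB, 23 patterns) they were 6.44 (59 reads) and 2.02 (21 reads). Positions that are not unique in mm9 at the read length can hold no read, also in the local level. Divided by unique positions, the Nsl1 ratios of Zfp606, Zfp646, Zfp551, Zfp180 and Zfp788 fell to 10.5, 9.305, 5.31, 5.51 and 5.28. The Msl1 ratio of Zfp788 fell to 1.815, and its call was lost. Zfp511, whose TSS lies 1 base from that of Tubgcp2 on the other strand, was next to Zfp646 for Msl1 with 46 reads and a ratio of 4.095 (2.998 to 5.46), beside 4.92 for Nsl1 (62 reads).

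Since these promoters carry the strongest signals, those of Zfp606 and Zfp646 are printed from the mm9 genome on the strand of the gene, 300 bases from 250 before the TSS on. Those of Zfp94 and Zfp568 are shown beside them, since their reads leaned toward Nsl1 and toward Msl1. They were not the members that leaned farthest, since Zfp114 leaned more toward Nsl1 and Zfp553 and Zfp36 more toward Msl1. Capitals mark CCGGAAG, a core of ETS factor motifs, or the letters TTCTGGGA, both on either strand. The regions are chr7:13063392-13063691 (Zfp606, plus), chr7:135020060-135020359 (Zfp646, plus), chr7:25101636-25101935 (Zfp94, minus) and chr7:30768724-30769023 (Zfp568, plus).
Zfp606: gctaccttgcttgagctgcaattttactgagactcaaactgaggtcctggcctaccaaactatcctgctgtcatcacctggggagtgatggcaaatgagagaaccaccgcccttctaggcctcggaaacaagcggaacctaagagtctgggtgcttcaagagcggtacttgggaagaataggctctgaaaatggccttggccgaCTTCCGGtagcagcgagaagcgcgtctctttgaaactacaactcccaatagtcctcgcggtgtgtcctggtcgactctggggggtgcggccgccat
Zfp646: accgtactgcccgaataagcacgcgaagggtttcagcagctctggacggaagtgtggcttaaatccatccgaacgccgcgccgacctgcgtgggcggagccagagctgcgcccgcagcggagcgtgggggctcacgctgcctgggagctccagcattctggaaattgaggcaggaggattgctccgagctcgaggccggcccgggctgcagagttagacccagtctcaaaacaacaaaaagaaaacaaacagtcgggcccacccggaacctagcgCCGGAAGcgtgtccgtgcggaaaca
Zfp94: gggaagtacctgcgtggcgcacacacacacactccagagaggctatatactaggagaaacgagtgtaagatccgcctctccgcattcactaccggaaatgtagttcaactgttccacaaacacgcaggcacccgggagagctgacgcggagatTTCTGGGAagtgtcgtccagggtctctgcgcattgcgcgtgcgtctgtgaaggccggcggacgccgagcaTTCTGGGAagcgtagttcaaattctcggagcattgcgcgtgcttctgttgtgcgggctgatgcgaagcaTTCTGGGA
Zfp568: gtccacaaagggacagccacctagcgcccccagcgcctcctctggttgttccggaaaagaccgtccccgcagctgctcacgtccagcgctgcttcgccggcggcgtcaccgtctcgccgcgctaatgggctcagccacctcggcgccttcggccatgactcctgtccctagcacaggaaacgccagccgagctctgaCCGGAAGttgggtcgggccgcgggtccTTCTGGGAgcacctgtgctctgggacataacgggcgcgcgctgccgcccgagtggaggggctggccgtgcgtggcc
The 4 promoters held between 14 CpGs (Zfp606) and 32 CpGs (Zfp568), and Zfp94 held the letters TTCTGGGA 3 times.

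At the other end, the lowest ratios of both antibodies before any account of unique positions were those of Zfp607, with 4 Msl1 reads, 0.353 times the local level (0.0963 to 0.9045), and 3 Nsl1 reads, 0.282 times (0.0581 to 0.824). Zfp14 had 6 Msl1 reads (0.418, 0.153 to 0.9095) and 7 Nsl1 reads (0.474, 0.191 to 0.977). Zfp78 had ratios of 0.733 (8 reads) and 0.787 (11 reads), with intervals that included 1. Part of these windows cannot hold a read that is placed uniquely. Of the positions at the TSS of Zfp607, 50.65% were unique in mm9 at the Msl1 read length and 36.2% at that of Nsl1, and the shares at Zfp78 were 64.6% and 60.8%. Divided by unique positions, Zfp607 had ratios of 0.623 (0.170 to 1.59) and 0.651 (0.134 to 1.90) and Zfp78 of 1.065 and 1.16, so neither was shown to lie below the local level. At Zfp14, where 98.75% and 98.05% were unique, the ratios were 0.400 (0.147 to 0.871) and 0.439 (0.176 to 0.904), and it was the only member whose interval lay wholly below 1 with this division, in both libraries. Without the division 2 members (2.33%) had such an interval in each library. Of all protein-coding genes 2.52% had one for Msl1 and 2.24% for Nsl1, so the members were near that background. Under 80% of the TSS window was unique at 7 members for Msl1 and at 12 for Nsl1. Zfp607, Zfp14 and Zfp78 are KRAB genes.

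At some members without a call the reads lay beside the annotated start. Within 2 kb, a step of 500 bases outside the window held at least 10 reads and 2 times the local level at 17 of the 41 members not called for Msl1 and at 12 of the 27 not called for Nsl1, which counts the highest of several steps. By the same rule 26% of the uncalled protein-coding genes had such a step for Msl1 and 23.2% for Nsl1, and 43.2% and 27.3% of the uncalled Zfp genes of other chromosomes. At Zfp61 (KRAB, on the minus strand) the window held 5 Msl1 and 7 Nsl1 reads, 0.590 and 0.490 times the local level. The step from 1500 to 2000 bases downstream held 44 Nsl1 reads, 6.17 times (4.48 to 8.28), and 15 Msl1 reads, 3.54 times (1.98 to 5.84). The start shared by most of its transcripts lies 1557 bases downstream, and with the window placed there the ratios were 2.49 for Msl1 (21 reads) and 3.65 for Nsl1 (52 reads). At 15 members the start of most transcripts was another base than the gene start. Of these, 1 was called only there and 4 only at the gene start, for each antibody. At Zfp114 (KRAB) 2 Msl1 and 10 Nsl1 reads lay within 500 bases, while the step from 1000 to 500 bases upstream held 57 Nsl1 reads, 11.3 times the local level (8.53 to 14.6), and 12 Msl1 reads, 4.52 times (2.335 to 7.89). At Zfp607 the step from 2000 to 1500 bases upstream held 21 Nsl1 reads, 3.95 times (2.45 to 6.04), and 14 Msl1 reads, 2.48 times (1.35 to 4.15). Which start these genes use in mESCs was not measured here.

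**Figure D2:**
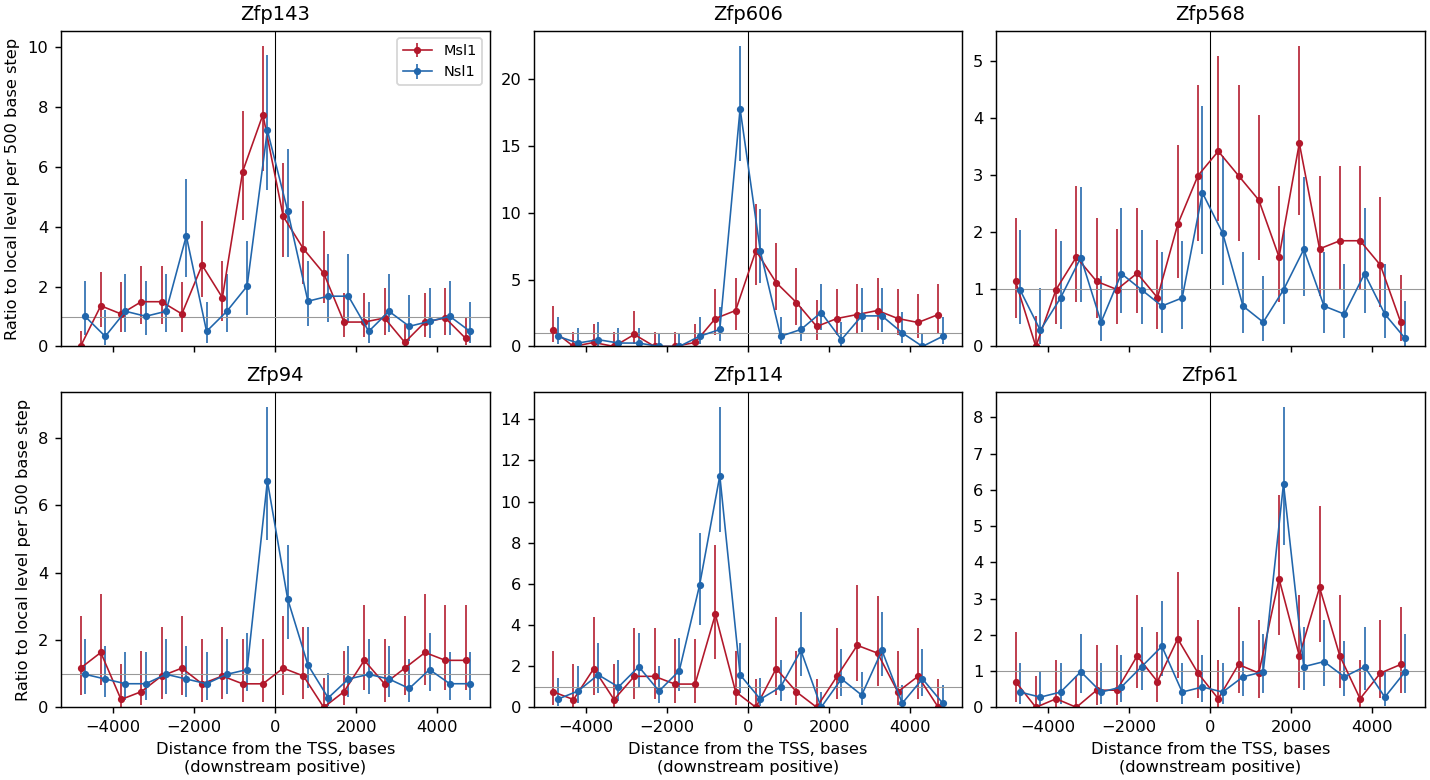
Reads per step of 500 bases, divided by the local level, from 5 kb upstream to 5 kb downstream of the annotated TSS (in bases, downstream positive) of 6 Zfp genes, for Msl1 (red) and Nsl1 (blue), with exact 95% Poisson intervals and a separate vertical axis per gene. Zfp606 and Zfp94 have a sharp Nsl1 maximum at the TSS (17.8 and 6.72 times the local level), Zfp568 has Msl1 spread downstream, and the Nsl1 maxima of Zfp114 and Zfp61 lie off the annotated TSS.

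Summed over the members, the Nsl1 reads were highest in the 100 bases upstream of the TSS, at 4.78 times the summed local level (4.38 to 5.20, 534 reads), and the Msl1 reads from 100 to 200 bases downstream, at 3.26 times (2.91 to 3.63, 326 reads). The next bins downstream had overlapping intervals, with 4.295 for Nsl1 (3.92 to 4.70) and 2.89 for Msl1 (2.56 to 3.24). Reads that Zfp646 and Zfp668 share enter each sum over the members once for each gene, so the intervals are too narrow. Over all protein-coding genes the highest bins lay from 0 to 100 bases for Nsl1 (3.63) and from 200 to 300 bases for Msl1 (3.13). The Zfp genes of other chromosomes reached 5.16 for Nsl1 (4.90 to 5.425), from 0 to 100 bases, and 3.51 for Msl1 (3.28 to 3.75), from 300 to 400 bases. The density of reads between 500 and 2000 bases downstream, divided by that within 500 bases of the TSS, gave 0.788 for Msl1 (0.743 to 0.835) and 0.377 for Nsl1 (0.356 to 0.398) over the members, so Msl1 reached farther downstream. Over all protein-coding genes these ratios were 0.849 and 0.487, and over the Zfp genes of other chromosomes 0.804 and 0.380. Within the wider window of 2 kb the median ratio of the members was 1.47 for Msl1 and 1.58 for Nsl1, against 1.52 and 1.35 over all genes.

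**Figure D3:**
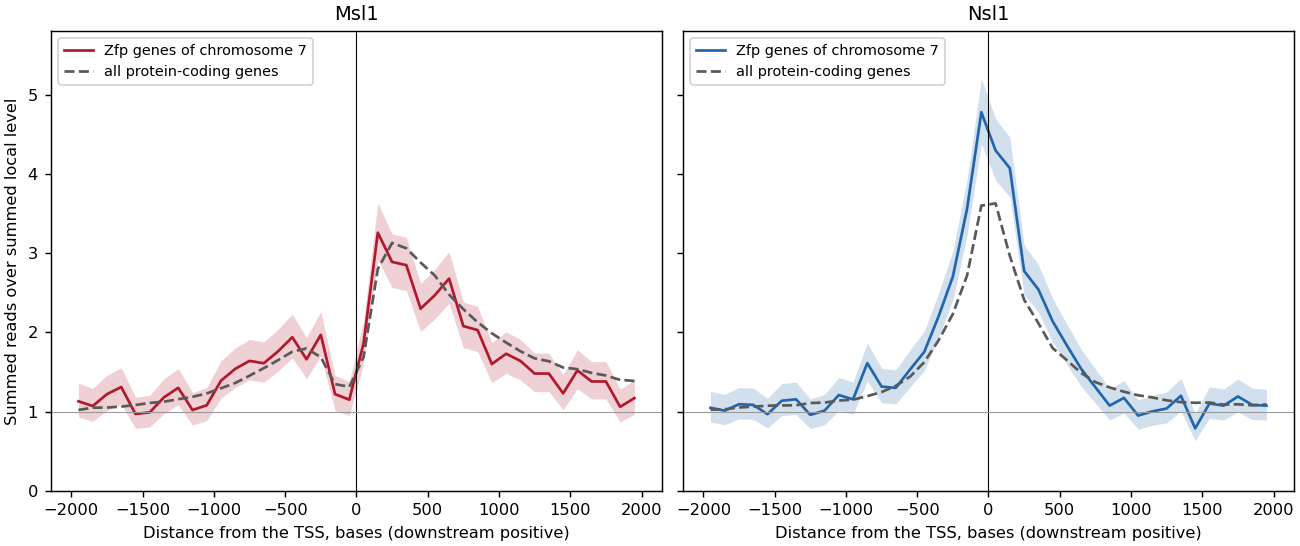
Summed reads divided by the summed local level, in bins of 100 bases, against the distance from the TSS (in bases, downstream positive), for Msl1 (left) and Nsl1 (right). Coloured lines are the 86 Zfp genes of chromosome 7 with exact 95% Poisson bands and dashed grey lines all 22367 protein-coding genes. The Msl1 curves of both sets lie close to each other, with maxima of 3.26 and 3.13, and the Nsl1 curve of these Zfp genes is higher than that of all genes, with maxima of 4.78 and 3.63 (5.16 for the Zfp genes of other chromosomes, not drawn).

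The libraries were then compared directly by dividing the Msl1 by the Nsl1 reads within 2 kb, each scaled to its library's size, at the 84 members with at least 50 reads of both together. The median was 1.081, against 1.16 over 19981 protein-coding genes. Of the 84 members 9 (10.7%) had a ratio of at least 2, where 9.89% of all genes did, and 3 (3.57%) had a ratio of at most 0.5, where 1.88% did. Both shares were near those of all genes. The exact binomial interval lay wholly above 1 at 21 members (25%, against 32.6% of all genes), wholly below 1 at 11 (13.1%, against 8.11%) and included 1 at 52 (61.9%, against 59.3%).

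Toward Msl1 the highest member was Zfp553 (12 C2H2 patterns, no KRAB box read), with 163 Msl1 and 65 Nsl1 reads and a ratio of 3.20 (2.39 to 4.34), the only member with an interval above 2. Zfp36 followed with 155 and 75 reads and a ratio of 2.64 (1.99 to 3.53), and then Zfp568, a KRAB gene known to be needed for gastrulation in the mouse, with 125 and 66 reads and a ratio of 2.42 (1.78 to 3.31). The local levels around these genes leaned the same way, with scaled ratios of 1.46, 1.44 and 1.27, and divided by them the ratios of Zfp553, Zfp36 and Zfp568 were 2.19, 1.835 and 1.905. At Zfp568 the Msl1 ratio was 2.996, 3.42, 2.996 and 2.57 in the 4 steps of 500 bases from 500 bases upstream to 1500 bases downstream. The Nsl1 ratios in the same steps were 2.70, 1.99, 0.709 and 0.426. The other members with a ratio of at least 2 were Zfp143, Zfp536, Zfp59, Zfp710, Zfp865 and Zfp936.

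Toward Nsl1 the members with a ratio of at most 0.5 were Zfp114 (0.276, 0.175 to 0.421), Zfp94 (0.284, 0.174 to 0.445) and Zfp109 (0.397, 0.237 to 0.641), and the intervals of the first pair lay below 0.5. The scaled ratios of the local levels around these genes were 0.670, 0.769 and 0.880, and divided by them the ratios were 0.412, 0.369 and 0.451. All 3 are KRAB genes of 1 position group of 14 members, which starts with Zfp180. Zfp114 and Zfp109 were not called for Nsl1 at the TSS, with ratios of 0.987 and 1.90. Their highest Nsl1 step within 2 kb lay from 1000 to 500 bases upstream. At Zfp94 (TSS at 25101685, minus strand) there were 71 Nsl1 reads within 500 bases, 4.97 times the local level (3.88 to 6.27), and 8 Msl1 reads, 0.929 times (0.401 to 1.83). Nsl1 was thus called there while Msl1 lay at the local level. Zfp260, a C2H2 gene without a KRAB box read, had TSS ratios of 1.55 for Msl1 (0.944 to 2.39) and 2.82 for Nsl1 (2.01 to 3.86) and a ratio of Msl1 to Nsl1 of 1.17 (0.819 to 1.66).

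**Figure D4:**
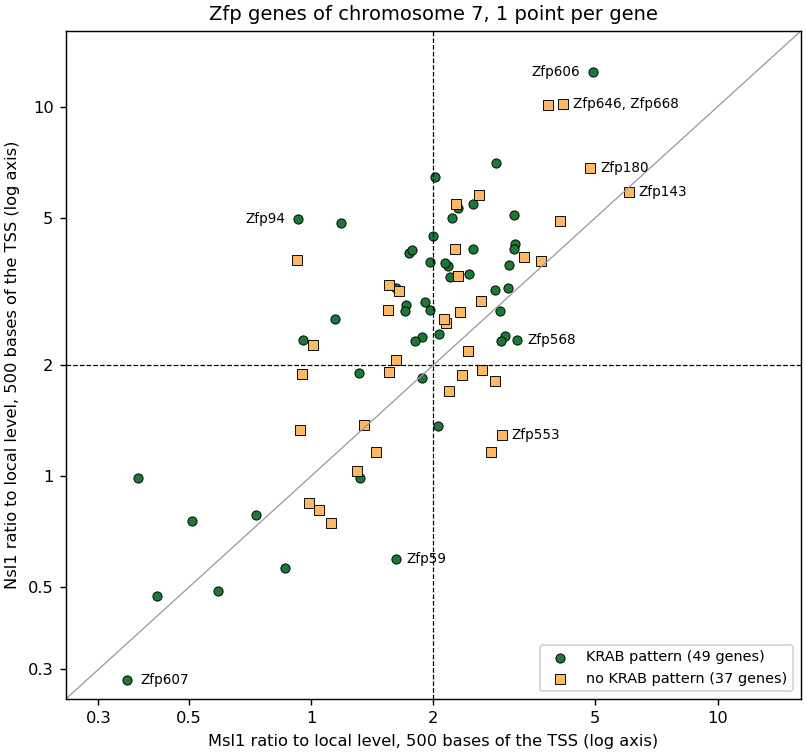
Ratio to the local level within 500 bases of the TSS for Msl1 (horizontal, log axis) and Nsl1 (vertical, log axis), 1 point per Zfp gene of chromosome 7, for 49 genes with a KRAB pattern (circles) and 37 without (squares). Dashed lines are at 2 and the diagonal marks equal ratios. Most points (62 of 86) lie above the diagonal, and Zfp606, Zfp646 and Zfp668 stand highest for Nsl1.

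By the kind of protein, the 49 KRAB genes had median TSS ratios of 1.97 for Msl1 and 2.96 for Nsl1, with 23 (46.9%) and 37 (75.5%) called. The 37 genes without a KRAB box had medians of 2.27 and 2.60, with 22 (59.5%) called for each antibody. Against 43.5% and 40.1% of all protein-coding genes, the Msl1 share of the KRAB genes was near the background. With promoters of an observed to expected CpG ratio over 0.6, 60.9% of 23 KRAB genes were called for Msl1 and 95.65% for Nsl1. Of 23 such genes without the box 82.6% and 56.5% were. At a ratio of at most 0.6 the shares were 34.6% and 57.7% of 26 KRAB genes. Of 14 others they were 21.4% and 64.3%, so both differences turned there, on few genes. The median of the Msl1 reads over the Nsl1 reads within 2 kb was 0.892 for the 47 KRAB genes with enough reads and 1.28 for the others. The local levels of the libraries, scaled in the same way, had a median ratio of 1.099 around the former and 1.21 around the latter, and divided by it gene by gene the medians were 0.885 and 1.062. With 1 library per antibody no test of this difference was made. The number of C2H2 patterns was not ordered with the ratios. The median Nsl1 ratio was 3.85 for 7 genes with 1 to 4 patterns, 2.36 for 24 genes with 5 to 9, 2.91 for 35 genes with 10 to 14 and 3.23 for 18 genes with 15 or more, and the Msl1 medians of these groups lay between 1.92 and 2.27. Zfp850, without a pattern, had TSS ratios of 1.009 for Msl1 (8 reads) and 2.265 for Nsl1 (20 reads). Divided by unique positions its Nsl1 ratio was 1.47, and the call was lost.

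Among the groups of 6 or more, the median Nsl1 ratio ran from 1.15 in the group from Zfp60 to Zfp36 (6 genes) to 4.11 in the group from Zfp788 to Zfp819 (7 genes), and the median Msl1 ratio from 1.32 in the former to 2.93 in the group from Zfp553 to Zfp668 (10 genes). Divided by unique positions the Zfp60 to Zfp36 group had medians of 1.425 for Nsl1 and 1.61 for Msl1, and the lowest Msl1 median was then 1.51, in the group from Zfp180 to Zfp526. Within the group from Zfp84 to Zfp146, 13 of 14 genes were called for Nsl1 and 8 for Msl1, and the exception for Nsl1 was Zfp14. In the group from Zfp180 to Zfp526, 7 of 14 genes were called for Nsl1 and 4 for Msl1, with Nsl1 ratios from 0.490 to 6.81. Of all protein-coding genes 40.1% were called for Nsl1 and 43.5% for Msl1. The local level itself was raised over the genome level, with a median of 1.53 for Msl1 and 1.36 for Nsl1 over the members, against 1.30 and 1.23 over all genes. It ran from 3.66 to 22.3 Msl1 reads per kb and from 4.17 to 18.7 Nsl1 reads per kb, and a low level raises the ratio for the same number of reads.

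The last exons were measured next, since they code for most fingers. They had a median length of 2102 bases, against 962 bases over all protein-coding genes, and in 76 of the 86 genes they started over 2 kb from the TSS. The median ratio to the local level was 1.22 for Msl1 and 1.16 for Nsl1, against 1.09 and 1.05 over all genes, so the last exons lay close to the level around the TSS. That level is taken from 5 to 50 kb of the TSS, and the reads of a last exon in this range are part of it. The last exons of Zfp536, Zfp710 and Zfp420 begin beyond it, 288903, 65521 and 55117 bases from the TSS. Called by the same rule were 10 members (11.6%) for Msl1, where 7.39% of all genes were, and 5 members (5.81%) for Nsl1, where 4.96% were. The last exon ratio exceeded that at the TSS at 17 members for Msl1 (19.8%, against 24.6% of all genes) and at 14 for Nsl1 (16.3%, against 24.3%).

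For Msl1 the called last exons were those of Zfp180, Zfp36, Zfp418, Zfp428, Zfp536, Zfp574, Zfp628, Zfp768, Zfp771 and Zfp936. At Zfp768 the last exon, of 2079 bases, starts 509 bases from the TSS and held 57 Msl1 reads, 2.89 times the local level (2.19 to 3.75), and 35 Nsl1 reads, 1.375 times (0.958 to 1.91). At Zfp36, whose last exon starts 762 bases from the TSS, 84 Msl1 reads gave 2.55 times (2.04 to 3.16) and 30 Nsl1 reads 1.03 times (0.693 to 1.47). At Zfp418 the last exon lies 9903 bases downstream and held 36 Msl1 reads, 2.80 times (1.96 to 3.87), and 28 Nsl1 reads, 1.67 times (1.11 to 2.41). The highest ratio, 4.30 at Zfp296, a gene whose protein is known in pluripotent cells, rests on 8 Msl1 reads in an exon of 125 bases (1.86 to 8.47) and is under the minimum for a call.

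For Nsl1 they were those of Zfp180, Zfp771, Zfp772, Zfp773 and Zfp865. At Zfp771 the last exon, of 999 bases and 9279 bases from the TSS, held 69 Nsl1 reads, 3.885 times the local level (3.02 to 4.92), and 46 Msl1 reads, 2.17 times (1.59 to 2.89). This was more than at its own TSS, where the ratios were 1.91 and 1.55. At Zfp180 the last exon starts 22481 bases from the TSS and held 92 Nsl1 reads, 2.76 times (2.22 to 3.38), and 55 Msl1 reads, 2.80 times (2.11 to 3.64). Zfp772 and Zfp773, of 1 position group, had Nsl1 ratios of 2.15 (20 reads) and 2.15 (44 reads), and Zfp865 one of 2.15 (14 reads).

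Whether reads could be placed at all was measured as the share of positions whose sequence of the read length, 50 bases for Msl1 and 36 bases for Nsl1, occurs once in the mm9 genome. In the last exons the median share was 100% and 99.4%, above that of the local windows, 94.55% and 90.25%. Under 80% were unique in 7 last exons for Msl1 (8.14%, against 14.4% of all protein-coding genes) and 8 for Nsl1 (9.30%, against 17.9%). The lowest shares were those of Zfp114 (34.2% for Msl1 and 29.5% for Nsl1) and Zfp59 (34.5% and 25.75%), which also had low last exon ratios, 0.0751 and 0.159 for Msl1 and 0.197 and 0.150 for Nsl1. Divided by unique positions these were 0.192 and 0.415 for Msl1 and 0.561 and 0.494 for Nsl1. With this division the median of the last exons was 1.11 for Msl1 and 1.057 for Nsl1. Of the calls, 8 of 10 for Msl1 and 3 of 5 for Nsl1 were kept, and those of Zfp418 and Zfp936 for Msl1 and of Zfp772 and Zfp773 for Nsl1 were lost. The ratios and calls of all genes were not divided in this way, so their values above are no background for these. At Zfp773 and Zfp772 the Nsl1 ratios fell to 1.74 and 1.15, where 75.03% and 41.7% of the local positions were unique, and at Zfp418 the Msl1 ratio fell to 1.998, just under the limit, where 71.4% were.

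**Figure D5:**
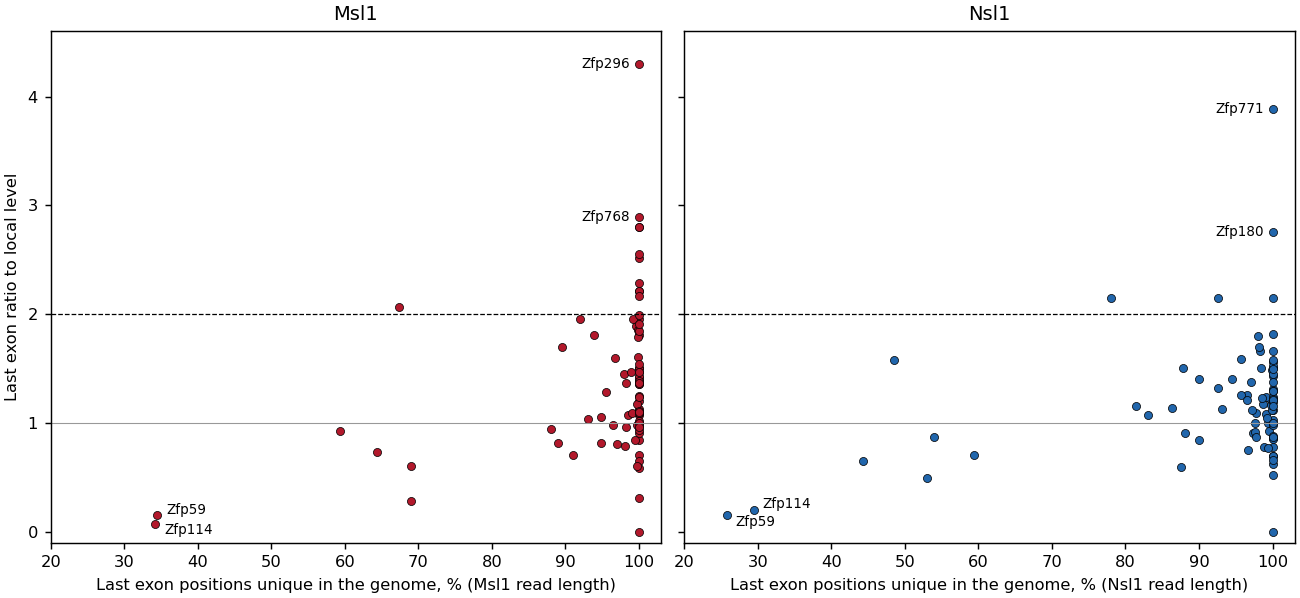
Last exon ratio to the local level of the 86 Zfp genes of chromosome 7 against the share of last exon positions (in %) that are unique in the mm9 genome at the read length of the library, for Msl1 (left) and Nsl1 (right). Dashed lines are at 2 and solid lines at 1. Most exons lie at or near 100% and close to a ratio of 1, and Zfp59 and Zfp114 are lowest in share and near 0 in ratio.

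The sequence of the promoters, the 300 bases around the TSS as above, was then set beside the reads. The ratio of observed to expected CpGs had a median of 0.640 over the members, against 0.534 over all protein-coding genes and 0.322 over the other genes of chromosome 7. Of the 46 members with a ratio over 0.6, 33 (71.7%) were called for Msl1 and 35 (76.1%) for Nsl1, while over all genes with such promoters the shares were 73.2% and 66.2%. Of the 40 members with at most 0.6, 12 (30%) were called for Msl1 and 24 (60%) for Nsl1, against 18.98% and 18.7% of all genes with such promoters. The Zfp genes of other chromosomes with at most 0.6 were called in 33.6% and 44.8%. Across the members the CpG ratio had a Spearman correlation of 0.509 with the Msl1 ratio and 0.326 with the Nsl1 ratio (n = 86).

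An opposite TSS within 1 kb was annotated for 11 members, of which 8 were called for Msl1 and 9 for Nsl1, with median ratios of 2.92 and 4.85. With Zfp646 and Zfp668 counted once, 7 of 10 were called for Msl1 and 8 for Nsl1, with medians of 2.609 and 4.385. Over all 3318 protein-coding genes with an opposite TSS within 1 kb, 73.2% were called for Msl1 and 71.8% for Nsl1, with medians of 2.785 and 3.19. The other 75 members had medians of 1.998 and 2.67. At these 11 genes the reads may belong to either TSS.

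Motif letters were searched on both strands of the same 300 bases, and a match is a description of the sequence only. The letters GCATGCGC, a core of the NRF1 motif, were found in 11 members (12.8%) and in 3.30% of all protein-coding promoters. The Zfp genes of other chromosomes held them in 4.26%. Within promoters of a CpG ratio over 0.6 the shares of the members and of all genes were 17.4% and 6.21%. Of the 11 members, Zfp141, Zfp715, Zfp658, Zfp719 and Zfp819 lie in 1 position group, that from Zfp788 to Zfp819. These 11 promoters had median TSS ratios of 2.27 for Msl1 and 3.46 for Nsl1, with 8 (72.7%) and 9 (81.8%) called. Of all 738 promoters with these letters 71% and 81.7% were called, with medians of 2.57 and 3.455, so the members were near that background. In 7 of them the letters overlap with themselves on the other strand. The ETS core CCGGAAG was found in 18 members (20.9%), in 10.8% of all promoters and in 20.2% of those of the Zfp genes of other chromosomes. Of these 18 members 17 were called for Nsl1 and 13 for Msl1, with medians of 3.76 and 2.47. Of all 2407 promoters with the ETS core 83.7% were called for Nsl1 and 73.1% for Msl1, with medians of 4.09 and 2.80. Zfp646 and Zfp668 share 1 match and their reads, and counted once they leave 16 of 17 called for Nsl1 and 12 for Msl1. The exception for Nsl1 was Zfp36, with a ratio of 1.70 (29 reads). CCAAT was found in 40.7% of the members and 37.9% of all promoters, TATAAA in 10.5% and 13.4%, AAGATGGCG, a core of the YY1 motif, in 2.33% and 1.84%, and TGACGTCA, the cyclic AMP response element, in no member and 2.33% of all promoters.

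The letters ACTACAATT, a core of the motif that Zfp143 itself is known to bind, were found in 4 members (4.65%) and 0.469% of all promoters. These matches are printed since they were identical over a longer stretch. They lie at chr7:13466504-13466532 (Zfp128), chr7:24866886-24866914 (Zfp180), chr7:24919150-24919178 (Zfp235) and chr7:25055358-25055386 (Zfp93) of mm9, and all 4 genes are on the plus strand. Capitals mark the core as read on the strand of the gene, that is the other strand of the motif.
Zfp128: gccttctgggAATTGTAGTctcagtgtcc
Zfp180: gagttctgggAATTGTAGTtccattgagc
Zfp235: gcattctgggAATTGTAGTtccagcgcca
Zfp93: gaattctgggAATTGTAGTtccaacgcca
The core began between 71 and 12 bases before the TSS. The 16 letters ACTACAATTCCCAGAA that the 4 promoters share were found in 15 of the 22367 promoters. These 15 include the 4 members above by construction, since the letters were taken from them. The Nsl1 ratios of Zfp128, Zfp180, Zfp235 and Zfp93 were 1.84, 6.81, 4.48 and 2.38, and the Msl1 ratios 1.87, 4.86, 1.998 and 1.88. Nsl1 was called at 3 of the 4 and Msl1 at 1, where of all 105 promoters with the core 74.3% and 60.95% were called. Zfp180, Zfp235 and Zfp93 lie in 1 position group.

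The libraries as a whole held 23888517 Msl1 and 26084098 Nsl1 reads, of which 81.7% and 95.4% of the nuclear ones were kept as distinct by position and strand. As a check of the cells, 8 genes known as stem cell markers had a median TSS ratio of 2.13 for Msl1 and 1.38 for Nsl1 (4 and 1 called), and 4 genes of fibroblast feeder cells 2.04 and 1.57 (2 and 1 called), where 43.5% of all protein-coding genes were called for Msl1 and 40.1% for Nsl1. The methods describe growth on feeder cells and, for work without them, their removal with enzymes and a passage on gelatine alone. ChIP reads do not measure expression, so neither list shows which cells were present.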

How the data were processed

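ChIP-seq of Msl1 and Nsl1 in mESCs was analysed. Single-end reads had been aligned to mm9 by the authors, who based their analyses on unique reads and deposited each aligned read as a line that gives position and strand. The submitters' processing notes name CASAVA 1.8.2 and Bowtie 0.12.7. The deposited score has the value 255 throughout and was not used. Mitochondrial reads were left out and 1 read was kept per position and strand, which left 19483142 Msl1 reads of 50 bases and 24883001 Nsl1 reads of 36 bases. Reads were moved by 102 bases (Msl1) and 67 bases (Nsl1), from strand cross-correlation maxima at 205 and 135 bases on chromosomes 16, 18 and 19. No Input library was used here.

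Genes were taken from a GENCODE release on mm9, which differs from the annotation used by the authors. The TSS is the 5′ end of the gene and the last exon that of the transcript with the longest coding sequence. Windows were divided by the local level from 5 to 50 kb. Intervals are exact 95% Poisson intervals of the window's reads, with the local level taken as known, or exact conditional binomial intervals for the ratio of both libraries. A call needs at least 10 reads and 2 times the local level, and a ratio between libraries at least 50 reads. C2H2 and KRAB patterns were counted in the translated coding bases of mm9. The members, lists and rules were chosen with earlier results of these data known. Genes are named with values when among the 6 highest or 3 lowest TSS ratios, the 3 at each end of the ratio between libraries or the 5 highest last exon ratios of either antibody, when without a C2H2 pattern, and Zfp143, Zfp36, Zfp568 and Zfp260. The 3 lowest were taken among members with at least 10 local reads per kb. Members named for a motif, a call or reads beside the TSS stand outside this rule and were chosen after their values were seen. Counting was tested on simulated data. Python 3.11.15, numpy 2.4.6, pandas 2.3.3, scipy 1.17.1, numba 0.67.0 and matplotlib 3.10.9 were used. Alternatives were all reads kept, a shift of 100 bases, a local level from 10 to 100 kb, without bases near TSSs or of the whole genome, division by unique positions, the start of most transcripts, members without another TSS within 1 kb, limits of 1.5 and 3, no minimum of reads, the coding part of the last exon and another downstream window.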

Additional observations from a re-analysis of the deposited data

How the results depend on the processing

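Of 91 recomputed values under alternative settings 79 stayed and 12 moved. Staying meant a value within the 95% interval of the main value, or within 1.5 times for a count. For a median this interval is taken over the genes. With a limit of 3 times the local level, 15 members were called for Msl1 and 38 for Nsl1. For this and the other settings the calls over all protein-coding genes were not counted, so these counts have no background. With the genome level in place of the local level the medians moved to 2.755 for Msl1 and 3.80 for Nsl1 within 500 bases of the TSS, to 2.20 and 2.13 within 2 kb and to 1.71 and 1.40 in the last exon. Within 2 kb the order of the antibodies thus turned, since the main medians were 1.47 for Msl1 and 1.58 for Nsl1. The coding part of the last exon alone gave a median of 1.43 for Msl1. The downstream ratio moved to 0.667 for Msl1 and 0.340 for Nsl1 with a window from 1000 to 2000 bases, and to 0.403 for Nsl1 without the members that have another TSS within 1 kb. Otherwise 37 to 63 TSSs were called for Msl1 and 50 to 69 for Nsl1, with more Nsl1 than Msl1 calls in each of the 11 settings. A restriction to last exons over 2 kb from the TSS, also with unique positions, was added after seeing the data and moved neither median. No paired analysis was possible because each antibody has 1 library. The depth limits what single genes can show, with medians of 21 Msl1 and 37 Nsl1 reads per TSS window.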

Other observations

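Of 18 genes for the partners through which KRAB zinc finger proteins act, 11 were called at the TSS for Msl1 and 9 for Nsl1, with median ratios of 2.31 and 2.16, where 43.5% and 40.1% of all protein-coding genes were called. Trim28, the corepressor that binds the KRAB box and itself a gene of chromosome 7, was called for neither antibody, with ratios of 1.66 for Msl1 (1.07 to 2.44, 25 reads) and 1.70 for Nsl1 (1.13 to 2.45, 28 reads). Setdb1, the histone methyltransferase recruited by Trim28, had 42 Nsl1 reads, 3.91 times the local level (2.82 to 5.29), and 11 Msl1 reads, 1.062 times (0.530 to 1.90). Pphln1, a subunit of the HUSH silencing complex, had the highest ratios of the list, 5.93 for Msl1 (54 reads) and 7.05 for Nsl1 (70 reads). Hdac1, a histone deacetylase, had 3.67 for Msl1 (43 reads) and 1.99 for Nsl1 (27 reads), and Chd3, a chromatin remodeller, lay below the local level in both libraries, with 0.527 (12 reads) and 0.332 (8 reads).

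The letters TTCTGGGA, taken from the stretch that the 4 promoters with the Zfp143 core share and so chosen after the sequences were seen, were found in 11 members (12.8%), in 6.59% of the Zfp genes of other chromosomes and in 3.06% of all protein-coding promoters. The 11 members were Zfp112, Zfp128, Zfp146, Zfp180, Zfp235, Zfp260, Zfp568, Zfp790, Zfp84, Zfp93 and Zfp94. Zfp128, Zfp180, Zfp235 and Zfp93 are among them by construction, since the letters were taken from their promoters. The share of the members is raised by this choice. Nsl1 was called at 10 of them, with a median ratio of 3.78 and a range from 1.84 to 6.81, and Msl1 at 5, with a median of 1.998 and a range from 0.929 to 4.86. The other 75 members had medians of 2.78 for Nsl1 and 2.07 for Msl1, with 49 and 40 called. Of all 685 protein-coding promoters with these letters 49.3% were called for Nsl1 and 42.2% for Msl1, with medians of 2.01 and 1.795.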
